A study of Mus musculus with 2 samples.

Results

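Long footprints are stretches of 40 bases or more inside open chromatin in which DNase I cut less than around them. They were chosen by their length in the deposited footprint calls, as intervals of at least 40 bases that overlapped such an interval in the other library by at least 1 base. In replicate 1, 2336 of 320456 footprints (0.729%) reached 40 bases, and 1315 of these (56.3%) had a long counterpart. In replicate 2, 4690 of 384435 footprints (1.22%) reached 40 bases, and 1315 of these (28.0%) had one. Every counterpart was a single footprint, so the members form 1315 pairs, called sites below. Their lengths and their presence in both libraries are therefore what selected them and are given as a description with no test.

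Both libraries are DNase-seq of gastrocnemius, the calf muscle, from male B6CASTF1/J mice aged 14 days, which are first-generation hybrids of a laboratory strain and a wild-derived strain. By their labels the libraries are replicate 1 and replicate 2 of a single group, with no contrast. The labels name the same donor entry for both libraries, describe the tissue with the words "3x Males" and do not say how many animals entered each library. Replicate 1 was sequenced on 2 instrument models. With 2 libraries, each pair of values below belongs to replicate 1, then replicate 2, and nothing was tested.

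The libraries held 82498 and 88198 peaks in the stricter of their deposited lists, and the read depth of the libraries is unknown from these files. Promoters of all 10 skeletal muscle markers looked at, among them Ckm and Acta1, had a peak in both libraries. The same held for 0 of 5 hepatocyte, 0 of 3 keratinocyte and 0 of 4 leukocyte markers, and for 3 of 5 endothelial, 3 of 4 fibroblast, 5 of 5 pericyte and smooth muscle, 2 of 4 Schwann cell and 2 of 3 neuron markers. The tissue is a mixture, and fewer open cells of a type and less cutting per cell cannot be told apart.

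A footprint is read as DNA shielded by bound protein, and most single transcription factors contact a short stretch. CTCF is an exception. It is a zinc finger protein of insulators and chromatin loop anchors, its central fingers read a core motif, and further fingers can contact an additional element upstream of the core. At promoters, DNA just upstream of a start is often crowded by several factors, such as the SP and KLF families at GC-rich boxes, NF-Y at the CCAAT box and NRF1 at its own GC-rich site. A long protected stretch can thus hold a single large contact or several neighbouring ones, and length alone does not separate these.

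The following sequences show the pattern that recurred most often. They are the 5 distal sites with both CTCF elements whose host peaks had the highest mean percentile, among sites in unique, unmasked sequence outside UTRs, and they were picked after their values were seen. Distal means more than 1 kb from any annotated start. Each is the union of both footprints in the RefSeq sequence of build GRCm38 (mm10), read 5′ to 3′ on the strand of the core. The first run of capitals is the upstream element and the second is the core.
Vps37c intron, chr19:10709516-10709561, minus strand: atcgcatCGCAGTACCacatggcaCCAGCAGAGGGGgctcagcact
Pmp22 intron, chr11:63135785-63135833, minus strand: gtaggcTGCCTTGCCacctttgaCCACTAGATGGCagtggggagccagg
Near Gm20443, chr17:35725767-35725813, minus strand: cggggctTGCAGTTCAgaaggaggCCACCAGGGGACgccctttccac
Ttc23 intron, chr7:67672862-67672907, plus strand: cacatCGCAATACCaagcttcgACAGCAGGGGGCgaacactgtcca
Near Psrc1, chr3:108389441-108389486, minus strand: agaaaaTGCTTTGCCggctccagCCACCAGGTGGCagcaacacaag

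In these 5 sites the footprints were 46, 46, 45, 45 and 44 bases long in replicate 1 and 46, 48, 47, 46 and 46 bases in replicate 2. The gap between element and core was 8 bases in each, because the choice required it. For contrast, 2 long sites had a core and no element at that place, with footprints of 44 and 45 bases near Gm44738 and of 46 and 50 bases near Otud3. Another 3 shared footprints were under 40 bases, with an exact core and no element near it, at 29 bases in both libraries near Rdh8, at 30 in both in Zfp286, and at 20 and 15 in Gm31166. Both contrast sets were picked for the highest mean host percentile among distal footprints of their kind outside repeats and UTRs, so strong hosts follow from the choice. The hosts of the 3 short footprints lay at the 94.4th to 98.2nd percentile of signal in replicate 1. They show only that some strong peaks held short footprints on a core. The capitals below mark the core.
Near Gm44738, chr7:73618504-73618548, minus strand: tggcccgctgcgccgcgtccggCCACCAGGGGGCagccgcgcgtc
Near Otud3, chr4:138922237-138922286, plus strand: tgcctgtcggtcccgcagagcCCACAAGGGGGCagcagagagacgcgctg
Near Rdh8, short, chr9:20831174-20831202, minus strand: acgtggCCACCAGGGGGCgctaggagctg
Zfp286 intron, short, chr11:62756908-62756937, plus strand: tccgctCCACCAGAGGGCgcaggggagacc
Gm31166 intron, short, chr19:5529423-5529442, plus strand: tgtCCAGCAGAGGGCaggat

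The sites ended at nearly the same bases in both libraries. Site footprints had a median length of 43 bases in replicate 1 (middle 50% of sites 41 to 45, longest 69) and 45 bases in replicate 2 (42 to 47, longest 73). The footprint was longer in replicate 2 at 840 sites (63.9%), longer in replicate 1 at 284 and equal at 191. Both edges lay within 3 bases of each other at 1016 sites (77.3%) and were identical at 105. The paired footprints shared 27 to 69 bases, with a median of 42, although the rule asked for 1 base. At the threshold itself, 36 sites measured 40 bases in both libraries and shared 36 to 40 of them, and 37 pairs just outside measured 39 bases in both and shared 35 to 39. Their host peaks had median percentiles of 92.6 and 93.9 just inside and of 93.2 and 94.3 just outside. Only 32 sites reached 50 bases in both libraries.

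**Figure D1:**
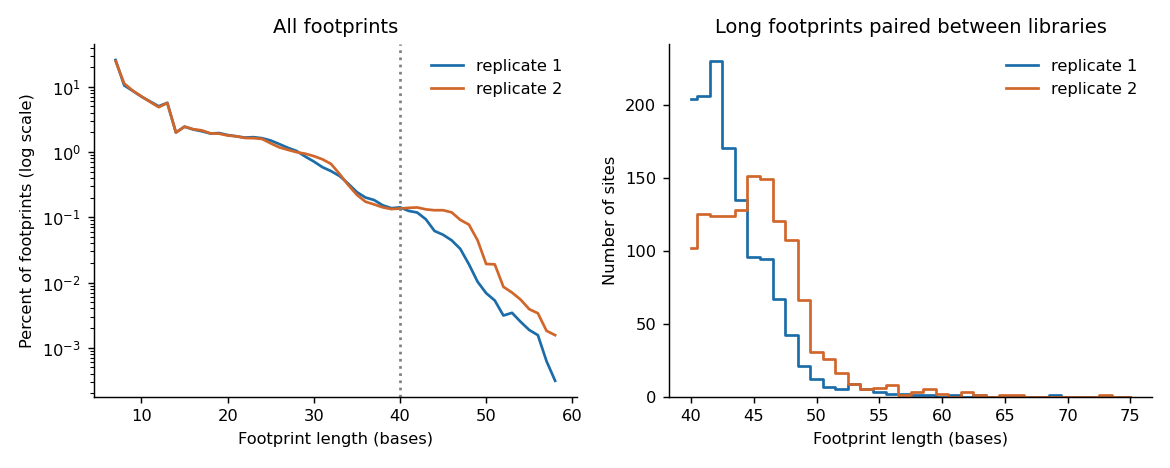
Left, percent of all footprints (log scale) at each length from the shortest to 58 bases in each library, with a dotted line at 40 bases. Right, number of sites at each length in each library. Replicate 2 has a shoulder past 40 bases that is less marked in replicate 1, and site lengths had medians of 43 and 45 bases.

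By position, 585 of the 1315 sites (44.5%) lay within 1 kb of an annotated start, 51 in exons, 343 in introns and 336 between genes. The 160918 footprints that both libraries shared at under 40 bases, which serve as the reference throughout, had a promoter share of 40.6%, so the overall split was close to that reference. Sites that covered an annotated start numbered 97 (7.38%), against 3.28% in the reference, but a longer interval covers any base more often. The sites had a median G+C content of 59.6%, below the 64.0% of the reference, and 82.3% of them had no base in an annotated repeat, against 88.6%. Here too length plays a part, since a longer interval touches a repeat more often and lies wholly in one less often. Wholly in annotated repeats lay 1.75% of sites, against 3.19%. All bases of 1275 sites (96.96%) were covered by 31-base words that occur once in the reference genome, and 9 sites had no such base. By chromosome, site counts ran from 110 on chromosome 2 to 24 on chromosome X and 0 on chromosome Y.

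Nearly all sites lay in called peaks, and the peaks were strong ones. Sites in strict peaks of both libraries numbered 1276 (97.03%), against 72.9% of the reference, and 5 sites lay in a strict peak of neither. The median host peak stood at percentile 85.5 of its library's signal in replicate 1 and 93.0 in replicate 2, against 73.1 and 74.0 for the reference peaks. For promoter sites alone the medians were 96.0 and 97.9, and for distal sites alone 72.5 and 88.7. Distal sites were thus not above the whole reference in replicate 1, but 40.6% of that reference lay in promoters. A median for distal reference footprints alone was not computed, so like positions were not compared. Shared footprints of 35 to 39 bases in both libraries had higher medians than the sites, at 92.7 and 94.2. However, 65.0% of them lay in promoters, against 44.5% of the sites, so length and position are mixed in that comparison. Peaks and footprints come from the same cuts, so these percentiles are not independent of the rule. The sites occupied 1246 and 1258 different host peaks, of which 40 and 39 held more than 1 site. The median host peak was 180 and 200 bases wide and held 3 and 4 footprints, against 180 bases and 2 and 3 footprints over all strict peaks. The site centre lay a median of 20 and 11 bases from the centre of the host peak.

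The CTCF core was the sequence feature most often held by the sites. It was counted on either strand with at most 1 mismatch to a consensus of 12 letters, in a window of 45 bases centred on each footprint so that length played no part. The core was present in 459 sites (34.9%), in 7.41% of the reference and in 0.304% of windows beside the sites. Among distal sites the share was 54.1% against 10.9%, and among promoter sites 10.9% against 2.34%. With 2 mismatches allowed, 661 sites (50.3%), 14.5% of the reference and 3.31% of the windows beside held it. In sites widened by 5 bases at each end, 175 of the 730 distal sites (23.97%) held neither a core with up to 2 mismatches nor an exact upstream element. Sites with the core had a median G+C content of 56.2%. The reference was shorter, at medians of 14 and 15 bases, and the core was not particular to long footprints. With footprints widened by 5 bases and 1 counted per core, 568 of 2336 long footprints in replicate 1 held a core. In replicate 2, 2036 of 4690 did. Of 2296 footprints of exactly 30 bases in replicate 1, 41 held a core with the upstream element and 677 one without it. In replicate 2 these were 107 and 1431 of 3332.

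An upstream element stood at a fixed distance from the core in 258 of the 461 sites with a core. The element was searched as TGCANTNCC, a form chosen after the site sequences had been read and similar to the upstream motif known for CTCF, with at most 1 of its 7 fixed letters changed. In sites widened by 5 bases at each end, a core was found in 461, and 258 of these (55.97%) had the element 7 to 9 bases before it. The share was 59.8% in distal and 32.3% (21 of 65) in promoter sites, and with the exact element it was 22.6% overall. The gap was exactly 8 bases in 248 of the 258. Over all starts of the element from -35 to -9, counted from 0 at the first base of the core, the share of sites was 53.8% at -17 and at most 1.52% at any other start. In reference footprints with a core, the share with the element at 7 to 9 bases was 6.11%. The exact core without mismatch was found in 136 sites, of which 48.5% had the element, against 3.71% in the reference.

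Base by base, the aligned sites differed from the aligned reference most at the place of the element. The most frequent base of the sites was more frequent there by 8.02 to 50.2 percentage points, with a median of 40.8. At -16 the base G was present in 83.5% of sites and 33.3% of reference cores, at -12 the base T in 83.9% and 42.5%, and at -10 the base C in 80.9% and 40.03%. Within the core the differences ran from -6.63 to 13.1 points with a median size of 1.40, and the largest was the A at position 7 with 53.6% and 40.5%. Downstream of the core, from position 12 to 30, they ran from -7.15 to 8.28 points, and upstream of the element, from -30 to -18, from 1.53 to 11.8 points.

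The footprint edges fell at narrow positions around the 2 elements. In replicate 1 the first protected base lay at a median of -22 from the core and the last at 21. In replicate 2 they lay at -23 and 22. The first base was between -24 and -19 in 391 of 461 sites (84.8%) in replicate 1 and in 413 (89.6%) in replicate 2. The last base was between 17 and 24 in 400 (86.8%) and 385 (83.5%). Sites without a detected element had almost the same edges, with first bases at medians of -21 and -22 and last bases at 21 and 23. Since every site spans at least 40 bases and holds the core, edges near these positions partly follow from the choice.

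**Figure D2:**
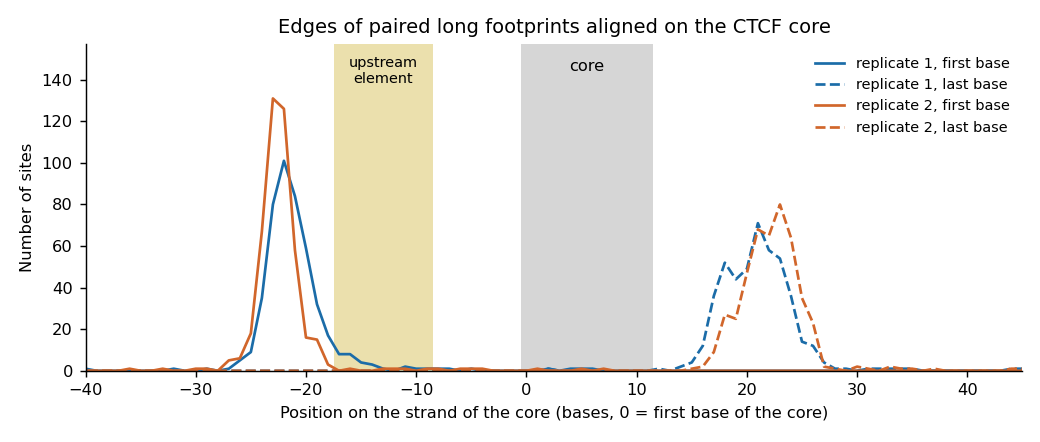
Number of sites whose first protected base (solid) or last protected base (dashed) lies at each position, in bases on the strand of the CTCF core, for the 461 sites with a core in each library. The shaded spans are the core and the upstream element at a gap of 8 bases. First bases cluster near -22 and last bases near 21 to 23 in both libraries.

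Seen from the sequence, a core with the element was more often under a long footprint than a core without it. Each library was searched for all cores touched by a footprint, taking for each core the footprint that overlapped it most, members included. In replicate 1, 275 of 1399 such footprints with the element (19.7%) reached 40 bases, against 293 of 11088 without it (2.64%). In replicate 2 these were 960 of 2380 (40.3%) and 1076 of 15153 (7.10%). Footprints of all kinds reached 40 bases in 0.729% and 1.22%. The element was read off the sites, so this share is partly given by the choice. In replicate 2, footprints on a core that belong to no site still showed it, with 702 of 2122 (33.1%) and 873 of 14950 (5.84%). In replicate 1 these were 18 of 1142 (1.58%) and 91 of 10886 (0.836%).

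With the element and members included, lengths had 2 separate maxima. In replicate 1 the most frequent lengths were 27 bases (63 footprints) and 41 bases (49 footprints), with a trough at 35 (24 footprints). In replicate 2 they were 30 bases (107 footprints) and 44 bases (129 footprints), with a trough at 35 (15 footprints). Without the element the lower maximum dominated, at 28 bases in replicate 1 and 30 in replicate 2, and the upper one was small, with 148 footprints at 45 bases in replicate 2 against 1431 at 30. In replicate 1 the upper maximum is made of the members themselves, because 18 of 1142 footprints with the element reached 40 bases once the members were left out. In replicate 2, 690 of 2122 such footprints (32.5%) still measured 40 to 49 bases without the members, 151 measured 35 to 39 bases, and the most frequent length above the trough remained 44 bases.

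With members included, the share of long footprints was higher in stronger peaks for both kinds of core, and higher with the element at each level of signal. In peaks below the 50th percentile, 9.02% of footprints with the element and 0.822% without it reached 40 bases in replicate 1, and 17.03% and 1.97% in replicate 2. In peaks at or above the 90th percentile these shares were 63.3% (19 of 30) and 11.6% in replicate 1, and 89.3% (183 of 205) and 17.3% in replicate 2. Without the members, the top range gave 78.2% and 11.05% in replicate 2, but 0 of 11 and 4.13% in replicate 1. In the lowest range it gave 17.03% and 1.94% in replicate 2, and 1.09% and 0.303% in replicate 1.

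**Figure D3:**
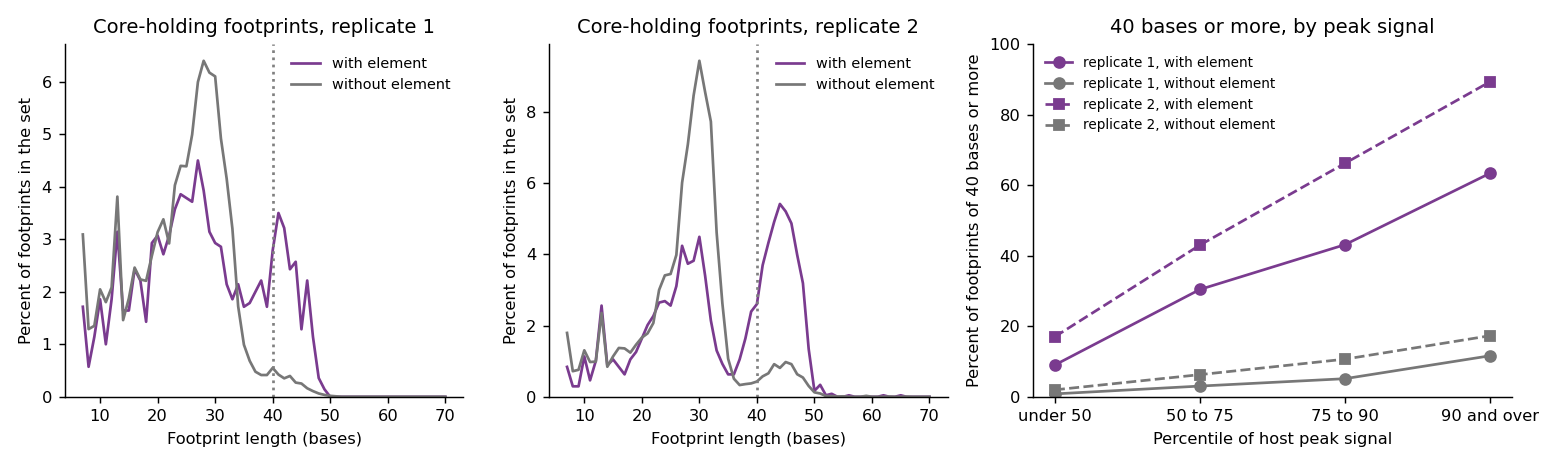
Left and middle, percent of core-holding footprints at each length in bases, with and without the upstream element, in replicate 1 and replicate 2, with a dotted line at 40 bases. Right, percent of these footprints of 40 bases or more against the percentile of host peak signal, for both libraries. Footprints with the element have a second maximum at 41 and 44 bases, and their share of 40 bases or more is the higher one in all 4 signal ranges, with the members of the 1315 sites included.

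With members included, the share also varied with the spacing, which restates the choice in part because 248 sites have the gap of 8 bases. Footprints on a core with the element at a gap of 8 bases reached 40 bases in 24.8% (262 of 1058) in replicate 1 and 46.7% (890 of 1906) in replicate 2. With a gap of 9 bases these shares were 3.47% (10 of 288) and 13.8% (56 of 407), and with a gap of 7 bases 5.66% (3 of 53) and 20.9% (14 of 67). Without the members the shares at gaps of 8, 9 and 7 bases were 38.7% (642 of 1658), 12.2% (49 of 400) and 17.2% (11 of 64) in replicate 2. In replicate 1 they were 1.85% (15 of 811), 1.07% (3 of 281) and 0 of 50. Cores with the gap of 8 bases also lay more often in annotated repeats, at 36.0% and 52.7% against 6.94% and 11.3% for the gap of 9. Outside repeats and with members, the shares reaching 40 bases were 19.9% with the element and 2.65% without it in replicate 1, and 46.0% and 7.21% in replicate 2. Inside repeats they were 19.2% and 2.61%, and 33.3% and 6.17%.

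Replicate 2 stood apart from replicate 1 most at the distal core sites, and less so in other site groups. The 395 distal sites with a core had host peaks at median percentile 69.8 in replicate 1 and 89.0 in replicate 2, and the peak signal was numerically higher in replicate 1 at 10.4% of them. At the 521 promoter sites without a core, the medians were 96.4 and 98.1, and the signal was higher in replicate 1 at 84.5%. Distal sites without a core had medians of 76.4 and 88.2, with the signal higher in replicate 1 at 41.2%. Promoter sites with a core had medians of 92.3 and 96.4, with the signal higher in replicate 1 at 57.8%. In all these shares, sites lacking a host peak in a library counted as not higher. Host peaks in both libraries were present at 388 of the 395 and 497 of the 521 sites. Scaling of the signal is not given, so only the contrast between site groups can be read. The replicate 2 footprint was the longer one at 81.5% of the distal core sites and at 50.1% of the promoter sites without a core. It was also the longer one at 78.1% of the promoter sites with a core and at 61.8% of the distal sites without one. The cause was not tested.

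**Figure D4:**
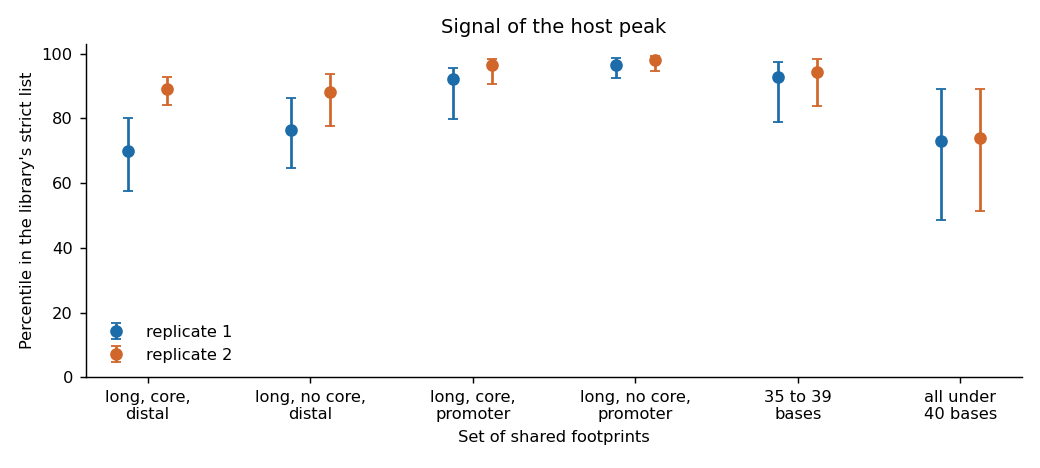
Percentile of host peak signal within the strict list of each library, as median (point) and middle 50% (bar), for 4 groups of sites, for shared footprints of 35 to 39 bases in both libraries and for all shared footprints under 40 bases. Promoter sites without a core stand highest in both libraries, and distal core sites have the lowest median of the site groups in replicate 1, at 69.8.

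Promoter sites had a different content. Of the 585, 521 had no CTCF core, and these had host peak signals of 11.2 and 6.98 at the median, against 2.32 and 1.64 for the whole reference. The centre of promoter sites lay at a median of -62 bases from the nearest start (middle 50% from -121 to -13), against -25 for reference footprints in promoters. Upstream of the start lay 80.3% of promoter sites and 59.8% of the reference, and between -150 and 0 lay 59.8% and 39.1%. The sites fell off sharply past the start, with 44 between 0 and 50 bases and 13 between 50 and 100. By gene type, 508 of the promoter sites (86.8%) were nearest to a protein-coding start and 37 to a lincRNA start.

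**Figure D5:**
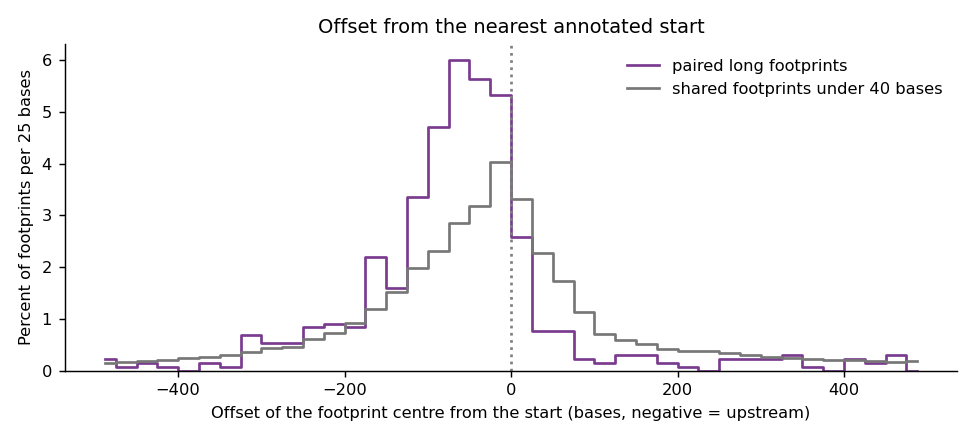
Percent of footprints per 25 bases of offset between their centre and the nearest annotated start, negative upstream, for the 1315 sites and for the 160918 shared footprints under 40 bases. The sites peak between 75 and 50 bases upstream (6.01% in that bin against 2.84%) and are fewer than the reference just downstream of the start.

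Promoter sites held some short factor motifs more often than the reference and others not, and most held at most 1 kind. The GC box GGGCGG, the element of the SP family, was held by 206 promoter sites (35.2%) against 24.5% of reference footprints in promoters, both in the window of 45 bases. A variant GGCGTGG, of the CACCC type read by KLF proteins, was held by 9.40% against 3.47%. The CCAAT box of NF-Y was held by 17.1% against 7.73%, and the NRF1 site GCGCNTGCG by 6.15% against 3.64%. Counted together and with overlaps kept, 2 or more GC or CACCC-type boxes stood in 18.3% of promoter sites against 5.73%, and 3 or more in 5.13% against 0.891%. Of the 10 promoter motifs searched, 2 or more stood in 79 promoter sites (13.5%) against 5.53%. A CCAAT box with a GC or CACCC-type box stood in 3.08% against 1.72%. The ETS site CCGGAA was not higher, at 3.76% against 4.85%, nor was the YY1 site, at 1.03% against 1.54%. The same held for the CRE (0.684% against 0.788%), TATA box (0.513% against 0.571%) and ZNF143 site (0.342% against 0.504%). The ZBTB33 site stood in 3 promoter sites, at 0.513% against 0.271%. None of the 10 was held by 230 promoter sites (39.3%), against 57.9%.

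Motifs of muscle regulators and of AP-1 were rare in the sites, but not all of them were rarer than in the reference. The E-box CAGCTG, bound by MyoD, the factor that sets muscle cell fate, stood in 33 sites (2.51%) against 5.76% of the reference. For distal sites alone these were 3.01% and 7.70%. Windows beside the sites held this E-box in 2.24%, close to the share of all sites. The AP-1 site TGANTCA stood in 0.228% against 1.51%. No site held an exact MEF2 site (0.265% of the reference). A CArG box, the site of the serum response factor, was held by 1 site (0.161% of the reference). Both motifs were thus rare in the reference as well. The TEAD site GGAATG was held by 2.89% against 2.36%. All motifs were counted on both strands in the same window, and a motif count shows letters and no binding.

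The longest sites were mostly promoters, and most of those printed next carry promoter boxes. The 10 sites of greatest mean length included 7 within 1 kb of a start. The longest, with 69 and 73 bases, lay between genes at chr4:67208571-67208643, entirely in an annotated repeat, and only 65.8% of its bases were in unique sequence, so it is the most doubtful. The promoters of Epb41, the gene of a red cell membrane skeleton protein (chr4:132075329-132075391), and Ikbip (chr10:91082994-91083051) had sites of 63 and 60 and of 57 and 56 bases, whose sequences lie in UTRs and are not printed. The Epb41 site held a GC box and a CCAAT box and was the longest with a CCAAT box, and the Ikbip site was the longest with a GC box. A 49 and 65 base site lay in an intron at -4159 bases from the start of AC154187.1, with 80% unique bases. In the following sequences, capitals mark exact matches to the searched motifs, and the strand is that of the nearest start.
R3hdm1 promoter, chr1:128103186-128103249, plus strand: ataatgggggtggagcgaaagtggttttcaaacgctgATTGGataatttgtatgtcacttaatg
Foxn3 promoter window, chr12:99392118-99392176, minus strand: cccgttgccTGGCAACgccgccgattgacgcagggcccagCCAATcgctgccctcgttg
Near Gm16170, chr11:48856588-48856649, minus strand: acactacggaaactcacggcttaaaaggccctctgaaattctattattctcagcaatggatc
Inpp5f promoter, chr7:128611165-128611221, plus strand: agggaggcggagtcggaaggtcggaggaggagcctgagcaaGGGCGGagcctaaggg
Fbh1 promoter, chr2:11777660-11777717, minus strand: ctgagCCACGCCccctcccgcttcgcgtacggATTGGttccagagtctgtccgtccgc
Btbd8 promoter, chr5:107437850-107437905, plus strand: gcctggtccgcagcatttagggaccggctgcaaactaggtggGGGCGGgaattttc

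The R3hdm1 site measured 56 and 62 bases, centred at -106 from the start, with a CCAAT box read on the other strand. The site of Foxn3, a forkhead repressor gene, measured 58 and 59 bases at 925 bases downstream of a start and held a CCAAT box and the RFX motif GTTGCCA. The site near Gm16170, 55 and 60 bases, held none of the motifs. Inpp5f, which encodes a phosphoinositide phosphatase, had a site of 57 and 56 bases with a GC box. Fbh1, which encodes a DNA helicase, had a site of 54 and 58 bases with a CACCC-type box and a CCAAT box, and another of 46 and 48 bases closer to its start. The Btbd8 site measured 55 and 56 bases at -119. The longest sites with a CTCF core and with an exact upstream element had smaller mean lengths than the 10 longest, at 43 and 59 bases in an intron of Rnase4 and at 45 and 56 bases in an exon of Gm11280 near Zfp184. The first had 52.5% unique bases and is not printed. In the second, capitals mark the element read on the opposite strand.
Gm11280 exon near Zfp184, chr13:21940384-21940439, plus strand: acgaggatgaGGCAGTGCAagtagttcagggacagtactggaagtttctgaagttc

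The strongest host peaks gave a different list from the longest sites, with Fbh1 on both. The host peak of the highest mean percentile was at the promoter of Dynlt1b, a dynein light chain gene, with signals of 45.2 and 22.2, and its site of 50 and 48 bases (chr17:6430129-6430178) held GC, CACCC-type and NRF1 motifs. Next came a peak on chromosome X, upstream of the kinase gene Pak3, with signals of 25.6 and 78.7, which is the highest of all peaks in replicate 2. It held 2 sites, of 48 and 54 bases and of 46 and 48 bases, centred at -35612 and -35458 bases from the Pak3 start, with 31.5% and 25% G+C. The other hosts were promoters of Fbh1 (signals 25.3 and 13.0), Dnpep (32.2 and 11.7), Ing2, which encodes a reader of methylated histone H3 (26.3 and 12.1), Peak1 (25.02 and 11.997) and the pseudogene 2610005L07Rik, whose 2 sites had 72.7% and 24.5% unique bases. Of these sites that met the limits for printing, both Pak3 sites and the Peak1 site are shown, with motif matches in capitals.
Near Pak3, chrX:143482952-143483005, plus strand: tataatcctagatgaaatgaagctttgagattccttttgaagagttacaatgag
Near Pak3, chrX:143483109-143483156, plus strand: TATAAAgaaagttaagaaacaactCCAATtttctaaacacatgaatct
Peak1 promoter, chr9:56418238-56418280, minus strand: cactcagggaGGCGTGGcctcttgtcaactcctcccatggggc

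Among protein-coding genes with a promoter peak in both libraries, 560 of 13514 (4.14%) had a site within 1 kb of a start, of which 32 genes had 2 and 1 gene had 3. That gene was Zfp809, a zinc finger repressor of endogenous retroviruses in the mouse. Its 3 sites were centred at -135, -67 and 8 bases from its start, with lengths of 47 and 44, 46 and 51, and 42 and 47 bases, all in 1 peak of signals 14.1 and 11.3. Counts on the gene lists were small and are read against the 4.14%. Muscle regulators had 1 of 17 open genes with a site, Mef2d, a MADS-box factor of muscle. Sarcomere genes had 1 of 19, Mylpf, the fast regulatory light chain, and energy metabolism genes had 2 of 23. Excitation-contraction coupling genes had 0 of 13, clock and immediate early genes 0 of 19, pericyte and smooth muscle genes 0 of 10, endothelial genes 0 of 9, fibroblast genes 0 of 9 and Schwann cell genes 0 of 7. Leukocyte and hepatocyte lists had 1 open gene each and no site. Ribosomal protein genes had 7 of 79, proteasome genes 2 of 45, histone genes 1 of 53 and imprinted genes 1 of 14.

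The list genes named next, up to 3 per list, had sites centred between -164 and 3 bases from the nearest start. At Mef2d the site (chr3:88142274-88142320) measured 46 bases in both libraries at -75, with a GC box and a CCAAT box in 80.9% G+C. A CTCF core at its edge was found only in the widened search, so in the window of 45 bases it counts as a site without a core. At Mylpf it (chr7:127208711-127208758) measured 46 and 42 bases at -164, in 29.2% G+C, and 81.2% of its bases were in an annotated repeat. At Atp5b, the beta subunit of ATP synthase, it measured 47 and 43 bases with 2 CCAAT boxes, and at Gys1, the muscle glycogen synthase, 46 and 48 bases with a CAGCTG E-box. The site counted for Peg10, an imprinted gene, was centred at -10 from the start of its neighbour Sgce with footprints of 42 and 43 bases. The sites of Rpl26 (44 and 49 bases), Rps18 (42 and 44) and Hist1h4c (46 and 45) held no searched motif. The site counted for Rps27a (46 and 46) was centred at -31 from the start of its neighbour Clhc1 and lay in annotated UTR. Psmb3 had a site of 50 and 41 bases with a CCAAT box, and Psma4 one of 41 and 40 bases, centred 3 bases past its start, with a GC box and an NRF1 site. Printed below are the sites of Atp5b, Gys1 and Peg10, with motif matches in capitals.
Atp5b promoter, chr10:128083135-128083181, plus strand: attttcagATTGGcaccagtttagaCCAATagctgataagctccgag
Gys1 promoter, chr7:45434806-45434853, plus strand: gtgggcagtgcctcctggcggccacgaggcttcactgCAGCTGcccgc
Peg10 and Sgce promoter, chr6:4747195-4747238, minus strand: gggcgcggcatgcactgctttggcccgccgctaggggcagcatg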

How the data were processed

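DNase-seq of mouse gastrocnemius was measured in 2 libraries of 1 group. Peak lists, with a signal value per peak deposited by the authors on an unstated scale, and footprint lists, with a constant FDR (q-value) of 0.01 deposited by the authors, were used as given. Per the file headers and notes deposited with the samples, each file was derived from the alignment of its own library on mm10, without pooling, with the aligner, the callers and the read depth not given in the sources used here. Of the 2 peak lists per library, the one with fewer rows was used.

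Footprints of 40 bases or more were paired between libraries by an overlap of 1 base. Starts and genes came from GENCODE M21 (basic), and sequence and repeats from RefSeq GRCm38. A promoter site lay within 1 kb of a start. Of a site's overlapping peaks, the strongest was its host. Motifs were counted on both strands in 45 bases around the centre, and the aligned CTCF search used sites widened by 5 bases. Uniqueness used 31-base words. Overlap and motif code was tested on simulated data. Python 3.11.15, numpy 2.4.6, pandas 2.3.3, scipy 1.17.1, numba 0.67.0 and matplotlib 3.10.9 were used.

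The members and gene lists were chosen with earlier results of these data known, and the CTCF element and the CACCC-type box were added after the site sequences were read. Named sites are the 10 longest, the 10 with the strongest hosts, up to 3 per gene list, genes with 3 sites, and the longest site for each of the 4 most frequent motifs. Printed sequences have at most 30 bases in a UTR, at least 90% unique bases and do not lie on chromosome 18. Since members were chosen by length, no test was run. Alternatives were other length minimums, overlaps, peak lists, promoter windows, unique or unmasked sequence, and each library alone.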

Additional observations from a re-analysis of the deposited data

How the results depend on the processing

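The 7 results were recomputed under 12 settings, and 58 of 82 values stayed within their spread. The spread was the 95% Wilson interval for shares of sites, the SD over libraries for the others, or 1.5 times for the count. Part of the 58 was fixed in advance. Neither the peak list nor the promoter window can alter the number of sites, the counterpart share, start coverage or G+C. The spread of G+C had no width, so any change fell outside it. The number of sites was 2724, 307 and 32 with length minimums of 35, 45 and 50 bases, and 2336 to 4690 long footprints were found when either library was left out. The share in strict peaks was 95.3%, 99.02% and 100% with those minimums and 96.7% to 98.1% in single libraries. The promoter share was 50.1%, 40.7% and 71.9% with those minimums, 37.3% and 52.2% with windows of 250 and 2500 bases, and 31.3% to 50.2% in single libraries. The share covering a start was 18.8% at 50 bases and 4.50% to 8.39% in single libraries. The mean over libraries of the median host percentile was 96.4 at 50 bases and 86.7 to 88.2 in single libraries. Median G+C was 60.5% at 35 and at 50 bases, 60% without masked bases and 56.5% to 60.9% in single libraries. The mean share of long footprints with a counterpart was 42.2%, and 43.1%, 32.8% and 23.1% with minimums of 35, 45 and 50 bases. All of these counted as within the spread, because the 2 libraries differ so much that it ran from 22.2% to 62.1%. That share could not be computed from 1 library. The cause of these changes was not tested, except that a higher length minimum leaves fewer sites. Chosen after the data were seen, an exact core gave an element share of 48.5%, a core with 2 mismatches 52.8% and an exact element 22.6%, against 55.97%. No paired analysis was possible because there is 1 group. Depth is unknown, replicate 2 calls more long footprints, reads of the 2 parental alleles were not separated, and 2 libraries give no test of any share.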

Other observations

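Long footprints without a long counterpart differed in content between the libraries. Of the 1021 in replicate 1, 109 (10.7%) held a CTCF core, and of the 3375 in replicate 2, 1575 (46.7%) did. In the other library, 574 of the 1021 (56.2%) and 1466 of the 3375 (43.4%) were split into 2 or more footprints, and 198 and 492 met 1 footprint of 35 to 39 bases. A further 22 of the 1021 met no footprint, and of the 3375 there were 26 without one inside a strict peak and 417 without one outside such peaks.

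Among the 585 promoter sites, 42 (7.18%) lay between protein-coding starts that point away from each other, each within 1 kb, against 4.93% of reference footprints in promoters. The 646 footprints shared at 35 to 39 bases in both libraries were more often in promoters than the sites, at 65.0% against 44.5%. Of the 32 sites that reached 50 bases in both libraries, 23 lay in promoters and 1 held a CTCF core.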
